A study of Mus musculus with 2 samples.

Results

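The genes described here are the 38 mouse genes that license replication origins and build the replication fork, listed by gene symbol for what their proteins do. They make up 38 of the 20250 genes that had a named protein-coding transcript in the deposited table, and all 38 were found there. Total RNA-seq was carried out on cultured cells of 2 early stages of the B lineage, with 1 library per stage. The pre-pro-B cells were C57BL/6 Ebf1 -/- cells from female embryonic liver, grown on OP-9 stroma with Il-7 at 5 ng/mL, Scf at 10 ng/mL and Flt3l at 10 ng/mL. The pro-B cells were C57BL/6 Rag2 -/- cells from adult male bone marrow, grown on OP-9 stroma with Il-7 at 5 ng/mL alone. Ebf1 is a transcription factor needed for commitment to the B lineage, so cells without it stop before that step. Rag2 is part of the recombinase that rearranges the immunoglobulin genes, and cells without it stop at the pro-B stage. Stage is therefore joined to genotype, sex, age, tissue of origin and cytokines, and these cannot be told apart. With 1 library per stage there was no replicate check, and every difference below is a difference between these libraries.

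Values are FPKM, fragments scaled to the length of the transcript and to the mapped fragments of the library, summed over the RefSeq transcripts of each gene. The log2 change is log2 of (pro-B FPKM + 1) over (pre-pro-B FPKM + 1), which understates the change of genes with low values. It was computed for the 10131 genes with a mean FPKM of at least 1, and the fold values given are ratios of FPKM with nothing added. Each library was described as about 90000000 single-end reads of 97 nt. At that nominal depth the least covered value was that of Orc1 in pre-pro-B cells, about 556 fragments, for which counting error alone is 4.24%. In bulk samples such as these, fewer cells in a phase of the cell cycle and less RNA per cell cannot be told apart.

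The cell type markers had these values. The 9 genes marking pro-B cells summed to 72.9 FPKM in the pre-pro-B library and 3197 in the pro-B library, and all 9 were higher in the latter. Ebf1, the gene targeted in the pre-pro-B cells, is 1 of the 9 and gave 64.0 of the 72.9 FPKM. The 7 genes marking multipotent and early lymphoid progenitors summed to 1804 and 484 FPKM, and 5 of the 7 were lower in pro-B cells by 2-fold or more. Il7r alone, at 349 and 424 FPKM, made up most of the pro-B sum. One of the 5 stood against the pro-B label: Ptprc, the CD45 antigen of leukocytes, singled out after its values were seen. It stood at 269 FPKM in the pre-pro-B library and 0.917 in the pro-B library. The 12 genes marking OP-9 stroma summed to 21.6 and 16.6 FPKM, with 4 and 5 of them at 1 FPKM or more. Pdgfrb alone, at 15.9 and 0.377 FPKM, set the direction of that sum: the other 11 summed to 5.66 and 16.2 FPKM, and 8 of the 12 had a higher value in the pro-B library, the direction of the replication genes. Dcn and Postn were listed at 0 in both libraries, and Lum was listed at 0 in the pre-pro-B library. The 8 myeloid genes moved with stage, summing to 921 and 9.38 FPKM, with 6 and 3 of them at 1 FPKM or more. Tyrobp and Fcer1g alone, at 463 and 395 FPKM, gave most of the pre-pro-B sum. Elane was listed at 0 in both libraries, and Lyz2 and Csf1r were listed at 0 in the pro-B library. The part of the stromal and myeloid signals in the results below was not tested. Ebf1 itself was listed at 64.0 FPKM in the Ebf1 -/- library and 273 in the pro-B library, and Rag2 at 34.5 FPKM in the pre-pro-B library and 22.9 in the Rag2 -/- library. These values cover whole transcripts, so they do not separate the deleted stretches and check neither label.

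Replication of DNA is prepared in G1 by a step called licensing. In it the origin recognition complex (ORC), Cdc6 and Cdt1 load the ring of Mcm2 to Mcm7 onto DNA. In S phase Cdc45 and the GINS complex join the ring and turn it into the moving helicase. Polymerase alpha and primase then lay down primers, polymerases delta and epsilon extend them, and the Pcna clamp, loaded by replication factor C, holds the polymerases on the template. Fen1 and Lig1 trim and seal the Okazaki fragments of the lagging strand. Many of these genes are textbook targets of the E2F transcription factors, which are released at the G1 to S transition. Developing B cells proliferate in response to Il-7 at the pro-B stage.

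All 38 replication genes had a higher FPKM in pro-B cells than in pre-pro-B cells, against 43.1% of the genes tested. At least a 2-fold difference was reached by 25 of the 38 in that direction, where 12.2% of the genes tested reached it, and by 0 of 38 in the other direction, where 17.9% did. At a limit of 1.5-fold the counts were 29 of 38 higher, against 20.0% of the genes tested, and 0 of 38 lower, against 28.4%. The median log2 change of the 38 was 1.37, with a range from 0.01 for Rfc2 to 2.50 for Prim2, beside a median of −0.13 over all genes tested. Among the 6095 genes with a mean of at least 10 FPKM, a range that holds 37 of the 38, the median was −0.04. The summed FPKM of the 38 genes was 1073 in the pre-pro-B library and 2660 in the pro-B library, 2.48-fold higher.

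The deposited table also gave a 95% interval for each transcript from Cuffdiff, the program that estimated the FPKM. The intervals of the most abundant transcript overlapped between the libraries for all 38 genes. Thus 0 of 38 were separated, against 4.87% of the genes tested, a share so low that the count says little about these genes. The intervals rest on a spread estimated over both libraries together, as neither stage had a replicate. Pcna had intervals of 11.6 to 107 FPKM in the pre-pro-B library and 47.5 to 364 in the pro-B library. Those of Prim2 ran from 0.408 to 42.4 and from 4.16 to 239. The 38 genes were thus alike in direction, while none of their most abundant transcripts differed by more than these intervals. Over all 51 of their transcripts, 2 had intervals that did not overlap, both of Fen1 and in opposite directions, as described with its transcripts.

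**Figure D1:**
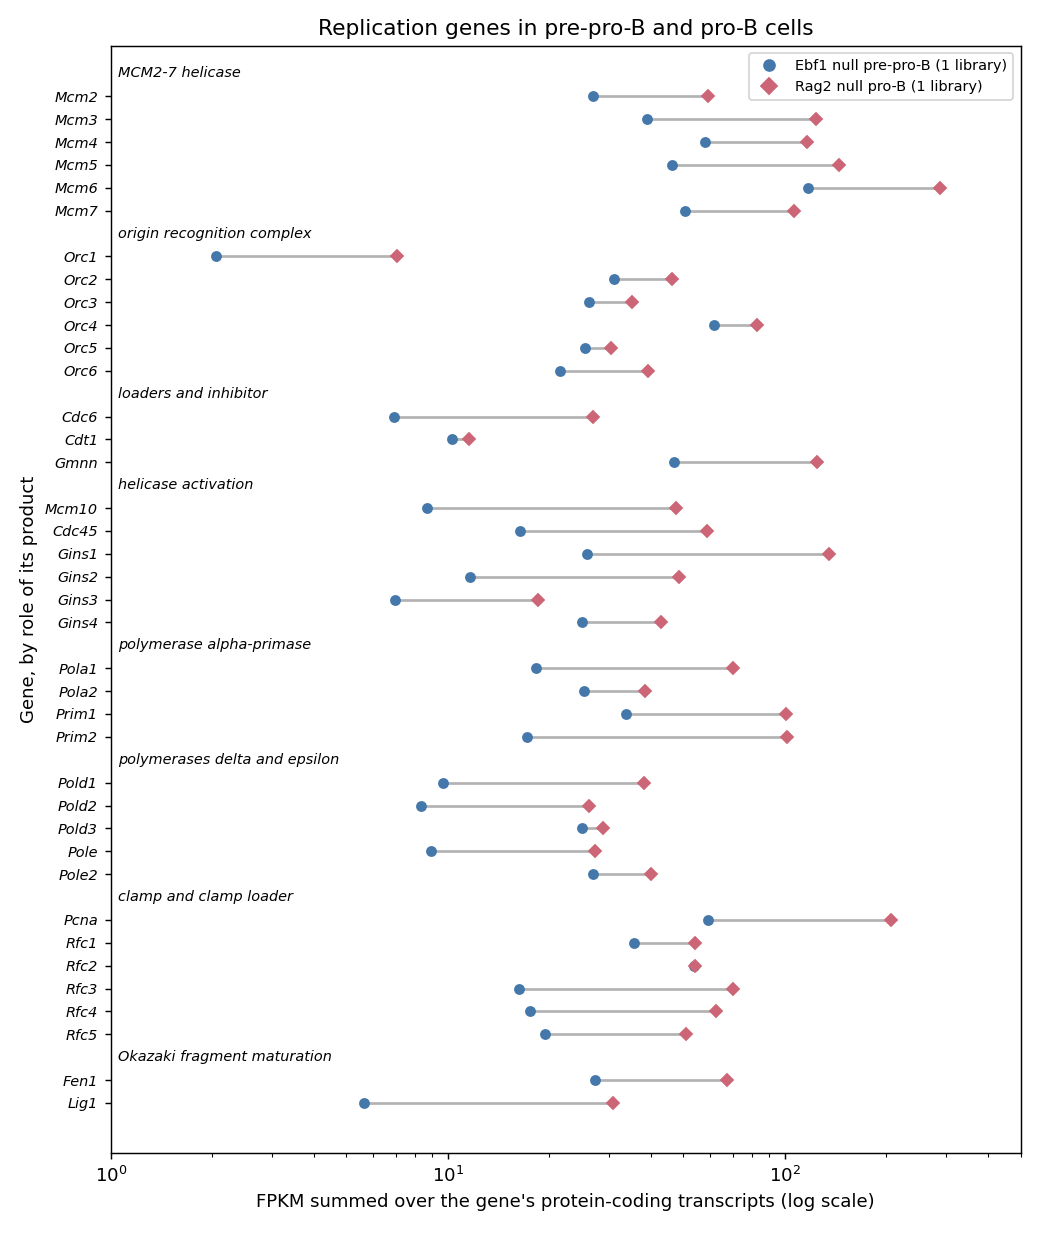
FPKM of each of the 38 replication genes in the pre-pro-B and pro-B libraries (horizontal axis, log scale), 1 library per stage, grouped by the role of the protein. Every gene has its pro-B value to the right of its pre-pro-B value, by 1.01-fold for Rfc2 and by 5.92-fold for Prim2.

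**Figure D2:**
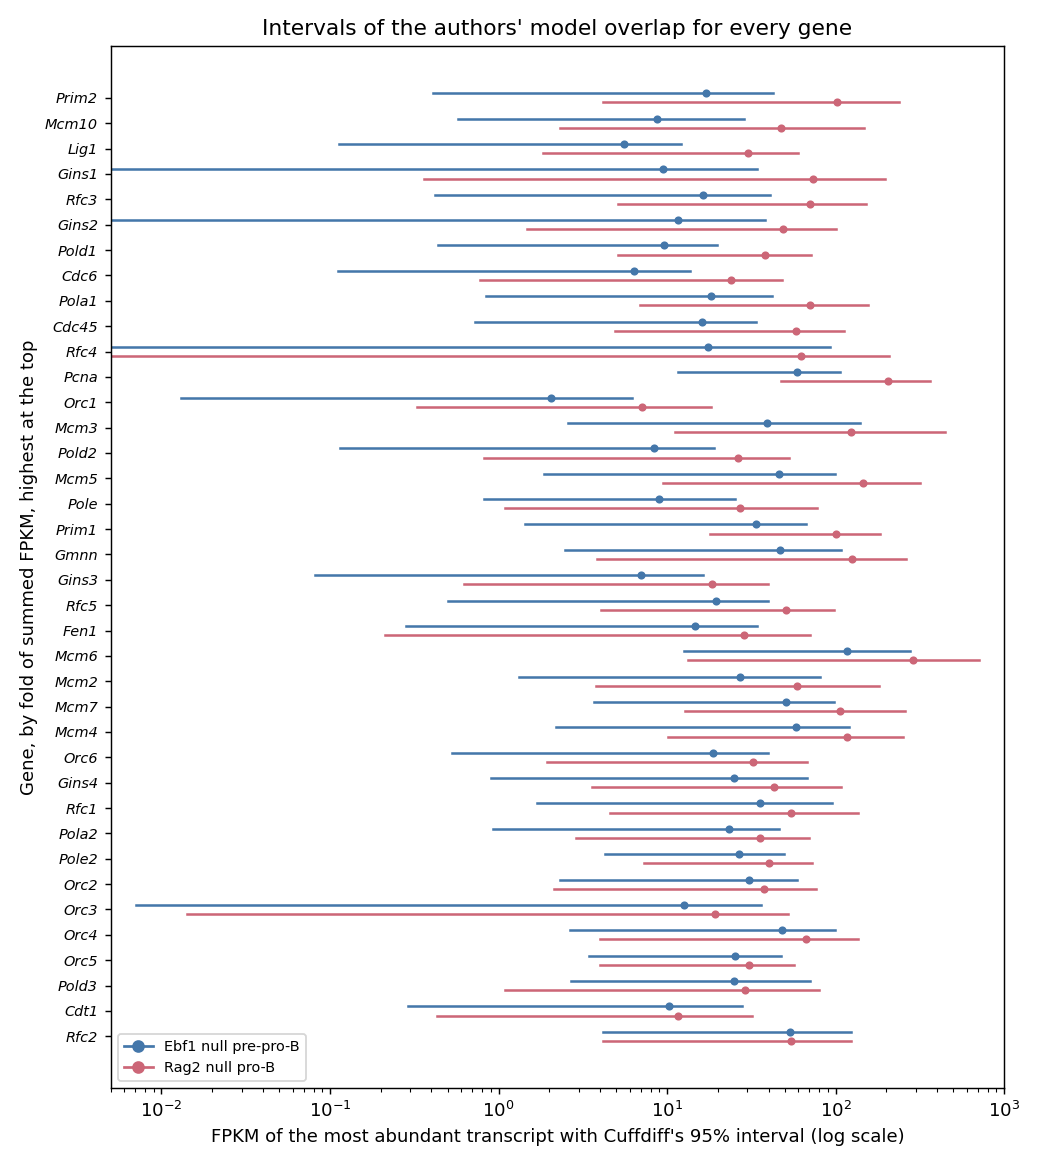
FPKM of the most abundant transcript of each of the 38 genes with the 95% interval from Cuffdiff (horizontal axis, log scale), in both libraries. The intervals of the libraries overlap for all 38 genes, including Pcna, at 11.6 to 107 FPKM in the pre-pro-B library and 47.5 to 364 FPKM in pro-B cells.

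The promoters of many of these genes share the letters to which E2F factors bind. The sequences searched were TTTGGCGC, TTTGCCGC, TTTCGCGC and TTTCCCGC on both strands, in the window from 250 bases before to 50 bases after the start of each gene (RefSeq, GRCm38.p6). A promoter was matched for 30 of the 38 genes, which is under 80% of them, so a check over the whole set is void and the counts describe those 30 alone. The 30 genes had 38 promoters, and a gene was counted if any of its promoters held a word. At least 1 of the 4 words was present in 15 of the 30 genes. Of the 8271 genes tested that had a promoter, 429 held one (5.19%), and of all 27025 genes with a promoter, 704 did (2.60%). The 15 promoters held 21 matches, at positions −165 to 40 relative to the start, and 14 of the 21 lay within 100 bases of it. For comparison, CCAAT was present in 18 of the 30, with 43.7% among the genes tested, and TTTGAA, the core of the CHR element of mitotic genes, in 5 of the 30, with 14.4% among the genes tested. The median GC content of these promoters was 60.1%, beside 61% for the genes tested. A match is a description of the letters and does not show that a factor binds there. The stretches around the matches are printed for 12 of the 15 genes, so that promoters of genes with large differences (Lig1, Rfc3, Pola1, Pold1, Cdc6) can be read beside those of genes with small ones (Cdt1, Pold3, Orc3). They read in the direction of transcription, with the E2F words in capitals.
Mcm3, chr1:20820263-20820309, minus strand: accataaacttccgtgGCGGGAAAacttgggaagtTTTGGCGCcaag
Mcm5, chr8:75109340-75109383, plus strand: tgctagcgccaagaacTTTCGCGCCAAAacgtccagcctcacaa
Mcm6, chr1:128359729-128359831, minus strand: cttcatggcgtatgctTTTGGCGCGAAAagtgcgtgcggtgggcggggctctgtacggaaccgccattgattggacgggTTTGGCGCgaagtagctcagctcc
Orc1, chr4:108579411-108579450, plus strand: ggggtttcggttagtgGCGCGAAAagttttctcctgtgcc
Orc3, chr4:34614960-34614999, minus strand: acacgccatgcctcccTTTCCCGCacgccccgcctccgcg
Cdc6, chr11:98907997-98908036, plus strand: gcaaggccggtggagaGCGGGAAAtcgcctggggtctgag
Cdt1, chr8:122568031-122568064, plus strand: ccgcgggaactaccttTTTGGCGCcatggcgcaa
Pola1, chrX:93632270-93632309, minus strand: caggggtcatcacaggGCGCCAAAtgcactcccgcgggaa
Pold1, chr7:44548766-44548792, minus strand: ggcggcgtatcttgtgGCGGGAAAagc
Pold3, chr7:100121462-100121501, minus strand: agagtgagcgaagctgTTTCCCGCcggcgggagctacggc
Rfc3, chr5:151651185-151651234, minus strand: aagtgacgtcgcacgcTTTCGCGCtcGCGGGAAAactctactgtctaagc
Lig1, chr7:13278836-13278875, plus strand: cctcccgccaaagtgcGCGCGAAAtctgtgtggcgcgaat
In Mcm5 and Mcm6 the capitals run on because a word on one strand overlaps a word on the other.

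Genes with and without such a word overlapped in their changes, which ran from 0.15 to 2.26 on the log2 scale with a word and from 0.25 to 2.33 without. The 8 genes with no matched promoter are not in this comparison. Among them are the extremes of the 38, Prim2 at 2.50 and Rfc2 at 0.01. The 15 with a word had a median log2 change of 1.41 and 11 of the 15 had a 2-fold or larger difference towards pro-B cells, while the 15 with a promoter but no word had a median of 1.28 and 9 of them were at least 2-fold higher. Among the other 414 genes tested that held a word, the median log2 change was 0.13 and 17.6% were at least 2-fold higher. Large and small differences were thus found both with and without the word.

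**Figure D3:**
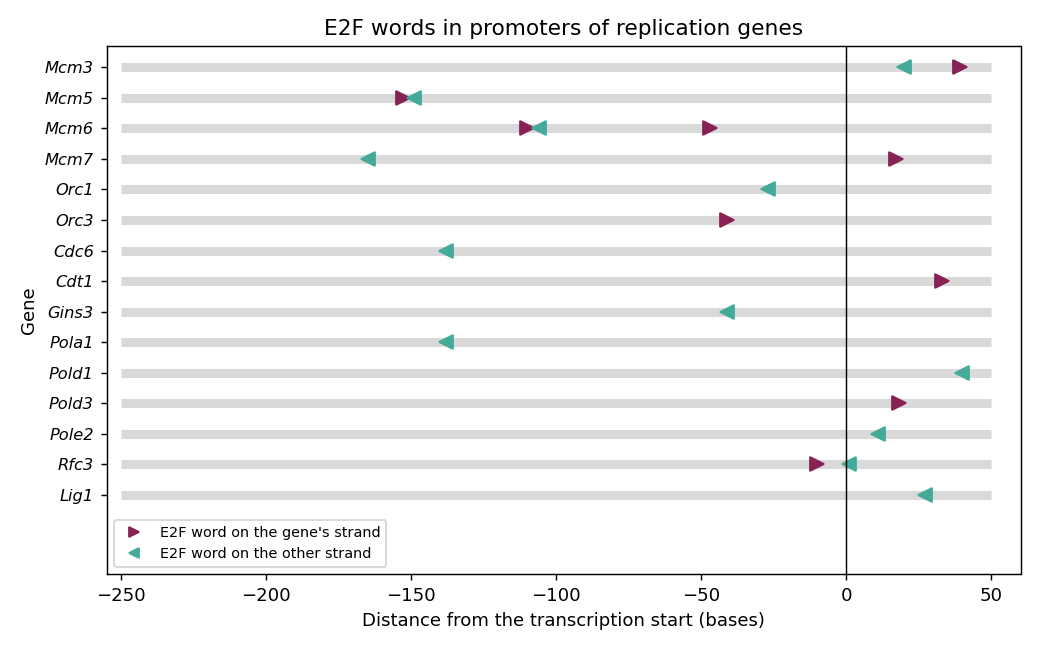
Position of each E2F word relative to the gene start (horizontal axis, bases) in the 15 replication genes whose promoter holds one, with 1 row per gene. The 21 matches lie at positions −165 to 40, and 14 are within 100 bases of the start.

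Mcm2 to Mcm7 form the ring that is loaded at origins and later unwinds DNA. All 6 genes lay above the median of the 38, which was 25.2 FPKM in the pre-pro-B library and 52.5 in the pro-B library. Mcm2 was the nearest of the 6 to that median. Mcm6 (mm9 chr1:130228168-130256233, minus strand) had the highest value of all 38 in both libraries, 117 FPKM in the pre-pro-B library and 288 in the pro-B library. Mcm3 (chr1:20793055-20810359, minus strand) stood at 39.1 and 123 FPKM, and Mcm5 (chr8:77633427-77652338, plus strand) at 46.3 and 144. The differences were 2.46-fold, 3.16-fold and 3.12-fold, so that Mcm3 and Mcm5 had the largest differences within the ring. More than one E2F word is held by the promoters of all 3, printed above, and also by that of Mcm7, not printed, with the smaller difference of 2.09-fold. Mcm2 stood at 26.9 and 59.3 FPKM, Mcm4 at 57.9 and 117, and Mcm7 at 50.7 and 106. The last 3 lay close to the 2-fold limit, and Mcm4, 2.01-fold higher in FPKM, fell just short of it once 1 was added to both values. The group median log2 change was 1.20. The spread of levels within the ring changed little, as the highest of the 6 (Mcm6) over the lowest (Mcm2) was 4.35 in the pre-pro-B library and 4.85 in the pro-B library.

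ORC marks the origins by binding DNA and recruits the loading machinery, and its subunits had the smallest differences of the 8 groups, with a median log2 change of 0.49. Orc2 stood at 31.1 FPKM in the pre-pro-B library and 46.3 in the pro-B library, Orc3 at 26.2 and 35.3, and Orc4 at 61.8 and 82.6. For Orc5 the values were 25.5 and 30.5 FPKM, and for Orc6 21.6 and 39.3. These 5 subunits were higher in pro-B cells by 1.20-fold to 1.82-fold, and 0 of the 5 reached 2-fold. Orc1 (chr4:108252028-108288633, plus strand), the ATPase subunit whose level is known to vary over the cell cycle, was the exception: it stood at 2.05 and 7.09 FPKM, 3.45-fold higher. Orc1 was also the least abundant of the 38 genes in both libraries, and the ratio of Orc4 to Orc1 went from 30.1 in pre-pro-B cells to 11.7 in pro-B cells. Without the 6 ORC genes, the other 32 genes had a median log2 change of 1.53, and 24 of them were at least 2-fold higher. The difference between ORC and the other groups was not tested.

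Cdc6 and Cdt1 bring the Mcm ring to ORC, and Gmnn (geminin) binds Cdt1 and blocks loading outside G1. Cdc6 (chr11:98769115-98785254, plus strand) stood at 6.93 FPKM in the pre-pro-B library and 27.0 in the pro-B library, 3.90-fold higher. Gmnn (chr13:24843714-24853792, minus strand) stood at 46.8 and 124 FPKM, 2.66-fold higher. Cdt1 (chr8:125091915-125097028, plus strand) stood at 10.3 and 11.5 FPKM, 1.12-fold higher. The loaders therefore did not move together, and the inhibitor differed more than the partner it binds: the ratio of Gmnn to Cdt1 was 4.54 in the pre-pro-B library and 10.8 in the pro-B library. Cdt1 and Cdc6 both hold an E2F word in the promoters printed above.

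Mcm10, Cdc45 and the 4 GINS subunits turn the loaded ring into an active helicase, and as a group they had a median log2 change of 1.87, the largest of the 8 groups with 1 added to each FPKM. With 10 added, polymerase alpha-primase came out above them, at 1.42 against 1.41, and by median fold the pair Fen1 and Lig1 did, at 3.98 against 3.87. Mcm10 (chr2:4910760-4933837, minus strand) stood at 8.66 FPKM in the pre-pro-B library and 47.6 in the pro-B library, 5.49-fold higher. Cdc45 (chr16:18780540-18812080, minus strand) stood at 16.4 and 58.8 FPKM, 3.58-fold higher. Both were well past 2-fold, and the GINS genes varied more among themselves. Gins1 (chr2:150731136-150757016, plus strand) stood at 25.8 and 135 FPKM, and Gins2 (chr8:123102533-123113204, minus strand) at 11.6 and 48.5. Gins3 stood at 6.99 and 18.6 FPKM, and Gins4 at 25.1 and 43.0. The 4 proteins form a complex with 1 copy of each, yet their genes were higher by 5.23-fold, 4.16-fold, 2.66-fold and 1.71-fold in turn. The ratio of the highest GINS gene (Gins1) to the lowest (Gins3) went from 3.69 to 7.27.

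Polymerase alpha has a catalytic subunit, Pola1, and a regulatory one, Pola2, and works with primase, made of the catalytic Prim1 and the large subunit Prim2. Prim2 (chr1:33510656-33726631, minus strand) stood at 17.1 FPKM in the pre-pro-B library and 101 in the pro-B library, 5.92-fold, the largest difference of the 38 genes. Prim1 (chr10:127452228-127467093, plus strand) stood at 33.7 and 101 FPKM, 2.99-fold higher. The primase subunits were thus near equal in FPKM in pro-B cells and unequal in pre-pro-B cells, with Prim2 over Prim1 at 1.01 and 0.508. Pola1 (chrX:90550106-90877494, minus strand) stood at 18.2 and 70.2 FPKM, 3.85-fold higher. Pola2 (chr19:5940543-5964206, minus strand) stood at 25.4 and 38.4 FPKM, 1.51-fold higher, and Pola1 over Pola2 went from 0.719 to 1.83. Pola1 lies on the X chromosome, and the pre-pro-B library came from female cells and the pro-B library from male ones.

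Polymerases delta and epsilon copy the bulk of the lagging and leading strands. The catalytic subunit of delta, Pold1 (chr7:51788116-51804219, minus strand), stood at 9.65 FPKM in the pre-pro-B library and 38.3 in the pro-B library, 3.97-fold higher. Its partner Pold2 stood at 8.33 and 26.2 FPKM, 3.15-fold higher. The accessory subunit Pold3 (chr7:107230621-107270075, minus strand) stood at 25.0 and 28.9 FPKM, 1.15-fold higher. Within polymerase delta the order of the subunits turned, Pold1 over Pold3 being 0.386 in the pre-pro-B library and 1.33 in the pro-B library. Pole, the catalytic subunit of epsilon, stood at 8.94 and 27.3 FPKM, and its partner Pole2 at 26.9 and 40.0. Here too the catalytic subunit differed more, 3.05-fold against 1.49-fold, and Pole2 over Pole went from 3.01 to 1.47.

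Pcna, the sliding clamp (chr2:132074898-132079050, minus strand), stood at 59.2 FPKM in the pre-pro-B library and 206 in the pro-B library, 3.48-fold higher. Replication factor C loads it and has the large subunit Rfc1 and the small subunits Rfc2 to Rfc5. Rfc3 (chr5:152445331-152453817, minus strand) stood at 16.3 and 70.3 FPKM, Rfc4 at 17.5 and 62.5, and Rfc5 at 19.4 and 50.8. These 3 were higher by 4.32-fold, 3.57-fold and 2.61-fold. Rfc2 (chr5:135058560-135074198, plus strand) stood at 53.9 and 54.2 FPKM, 1.01-fold, the smallest difference of the 38, and Rfc1 at 35.7 and 54.2, 1.52-fold. Because the 3 low subunits came up to the level of Rfc2, the small subunits were more even in pro-B cells: the highest over the lowest was 3.31 in the pre-pro-B library and 1.38 in the pro-B library.

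Fen1, the flap endonuclease (chr19:10273622-10278659, minus strand), stood at 27.3 FPKM in the pre-pro-B library and 67.4 in the pro-B library, 2.47-fold higher. Lig1, the ligase that seals Okazaki fragments (chr7:13862632-13896782, plus strand), stood at 5.63 and 30.8 FPKM, 5.48-fold higher. Both enzymes of this step passed 2-fold, and of the 38 genes Prim2 and Mcm10 alone had a larger fold than Lig1.

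**Figure D4:**
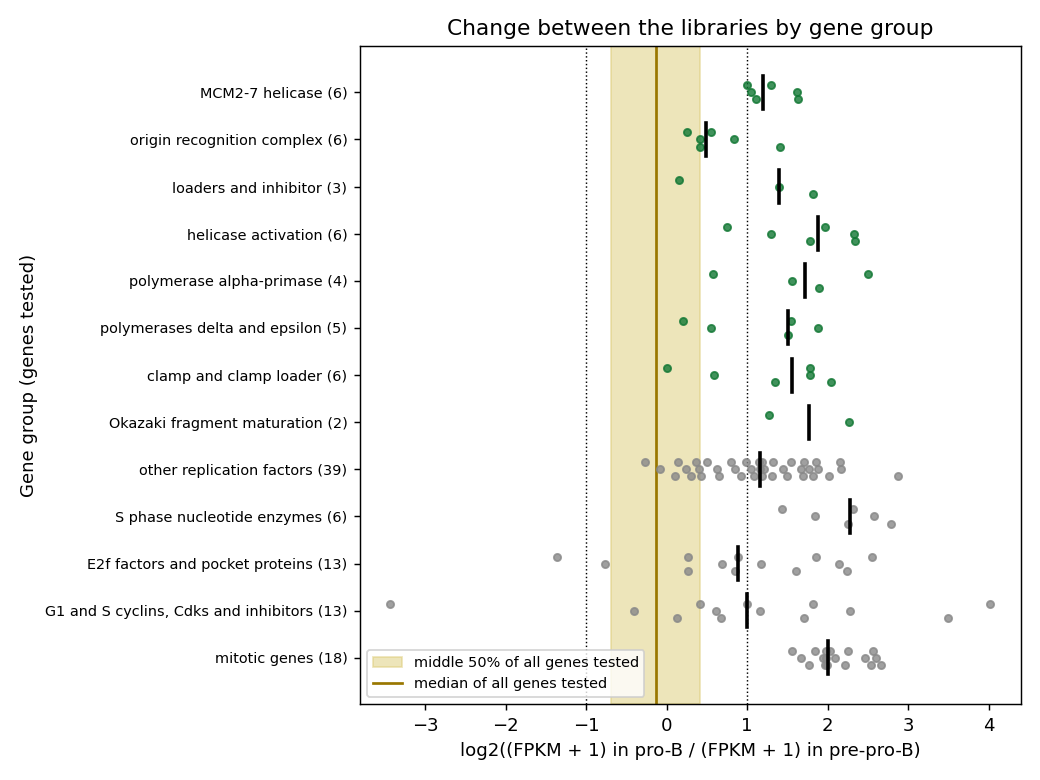
Log2 change (horizontal axis, pro-B over pre-pro-B with 1 added to each FPKM) of the 38 replication genes by role (green points) and of 5 other cell cycle lists (grey points), with black bars for group medians, dotted lines at 2-fold, a line for the median of all genes tested and a band for their middle 50%. The 25 replication genes past a 2-fold limit all lie on the pro-B side, and Orc2 to Orc6, at 0.25 to 0.84, lie short of it.

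Over the 38 genes the folds were uneven: 12 lay under 2-fold, 9 between 2-fold and 3-fold, 11 between 3-fold and 4-fold, and 6 at 4-fold or more. The last were Prim2, Mcm10, Lig1, Gins1, Rfc3 and Gins2. The smallest folds, from 1.01 to 1.20, were those of Rfc2, Cdt1, Pold3 and Orc5. The levels of the 38 genes kept much of their order between the libraries, with a Spearman rho of 0.726 across the 38 genes. The log2 change had a rho of −0.418 with the pre-pro-B level that is also part of it. Both are given as descriptions across genes of the same libraries.

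Of the 38 genes, 28 had a single transcript in the table and 10 had several, 51 transcripts in all. Fen1 had 3 transcripts of 2222, 2211 and 2106 bases, and its values moved between them. NM_007999 was listed at 0.00544 FPKM in the pre-pro-B library and 38.6 in the pro-B library, and NM_001271614 at 12.5 and 0.0331. NM_001271615 stood at 14.7 and 28.8 FPKM, so that taken alone it had a log2 change of 0.92, under 2-fold. Cuffdiff divides shared reads between transcripts of near equal length, and the interval it gave for NM_007999 in pre-pro-B cells was 0 to 0. In Orc2, NM_008765 held 98.4% of the gene's FPKM in the pre-pro-B library and 81.8% in the pro-B library, and NM_001271526 was listed at 0.00073 and 8.44 FPKM. In Gins1, NM_001163476 stood at 9.42 and 73.9 FPKM and NM_027014 at 16.4 and 61.0, which took the share of the first from 36.5% to 54.8%. In Lig1, by contrast, NM_010715 held 98.6% and 97.4%. Because FPKM is scaled by length, the gene sum also depends on this division where lengths differ. The Gins1 transcripts have 644 and 1087 bases, and the nominal fragments of the gene, 2149 and 10254, were 4.77-fold higher, beside 5.23-fold for the summed FPKM.

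**Figure D5:**
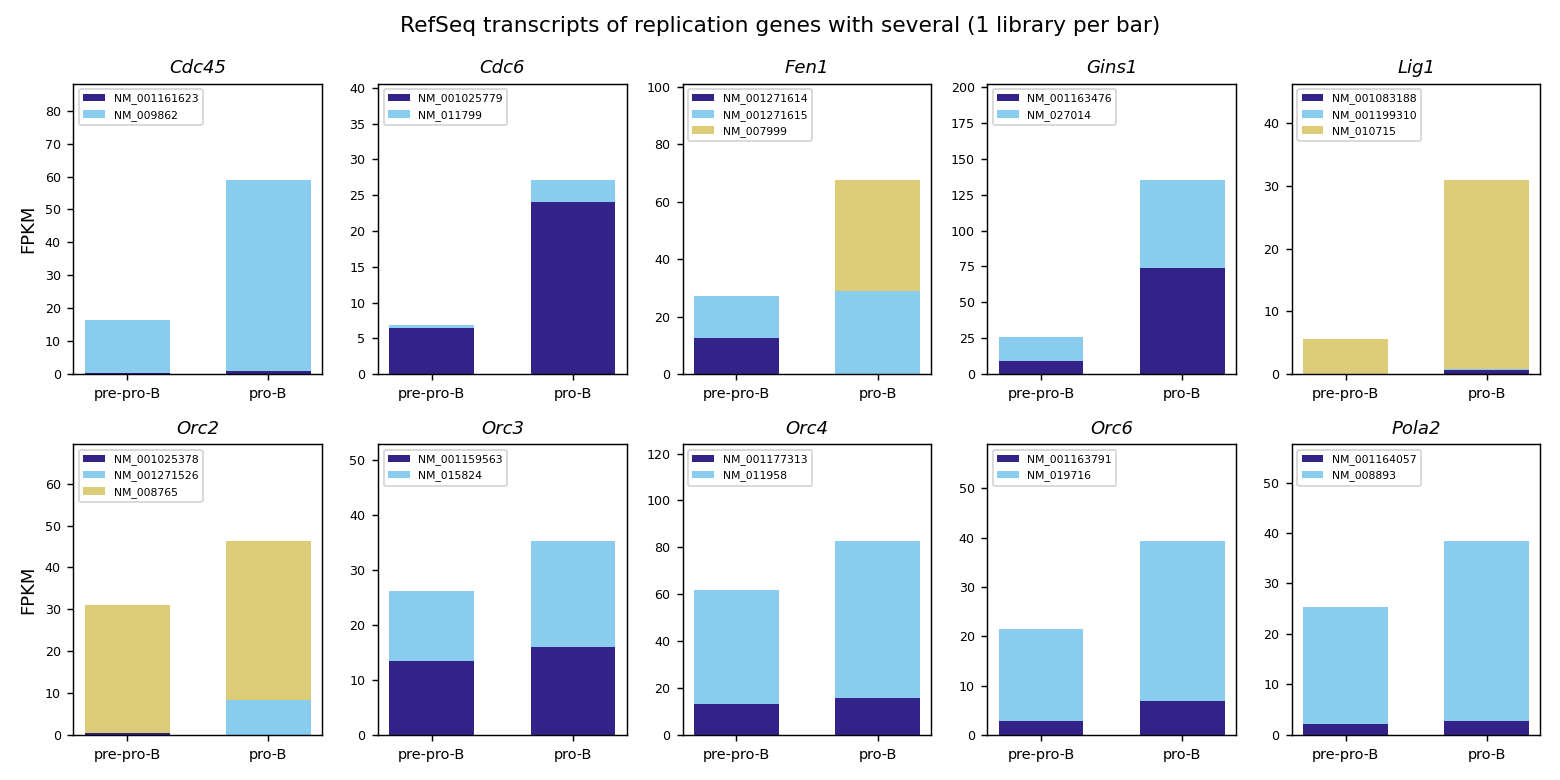
FPKM (vertical axes) of the transcripts of the 10 replication genes that had several, stacked in 1 bar per library, with a scale of its own for each gene. In Fen1, NM_007999 goes from 0.00544 to 38.6 FPKM while NM_001271614 goes from 12.5 to 0.0331 FPKM.

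Stretches of some of these genes have near-identical matches elsewhere in the genome. In mm9, 8 of the 38 had a match outside their own locus of at least 97 bases, the read length, at 95% identity or more. In 3 of them such matches covered over 50% of the transcript. For Pcna, 82.8% of the transcript was matched, the longest stretch being 1258 bases at 99.3% identity on chromosome 19. For Mcm7 it was 80.2%, with 2376 bases at 97.5% on chromosome 16, and for Cdc6 56.2%, with 1395 bases at 95.1% on the X chromosome. The rest of the 8 had shorter matches: Rfc5 over 23.1% of its transcript (410 matches), Lig1 6.66%, Mcm5 4.65% (401 matches), Mcm6 4.18% and Mcm10 2.30%. Reads from matched stretches could have been shared with the other places. The values of Pcna, Mcm7 and Cdc6 above all, and to a lesser degree Rfc5, are therefore less certain than those of the 30 genes without a match.

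Other replication factors were looked at beside the 38 genes, in a list of 39. It covered origin firing, checkpoint, chromatin and topoisomerase functions among others, and it held further subunits of polymerases delta and epsilon. Of the 39, 37 were higher and 2 lower in pro-B cells, 23 were at least 2-fold higher and 0 at least 2-fold lower, and the median log2 change was 1.16. Asf1b, a histone chaperone, stood at 9.01 FPKM in the pre-pro-B library and 72.5 in the pro-B library, and Clspn, the checkpoint mediator claspin, at 9.15 and 44.2. The lower ones, named after their values were seen, were Mcmbp, which binds the Mcm ring, at 43.9 and 36.4, and Chtf8, part of an alternative clamp loader, at 41.1 and 38.7. The E2F words were present in 8 of the 33 of these genes that had a promoter, 24.2%. The 6 enzymes that supply deoxynucleotides in S phase were all higher by 2-fold or more, with a median log2 change of 2.28. Tyms, thymidylate synthase, stood at 7.67 and 58.6 FPKM, and Rrm2, the small subunit of ribonucleotide reductase, at 36.1 and 219. The direction seen in the 38 genes was thus shared by most genes of both lists.

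The direction held for 37 or 38 of the 38 genes under other scalings of the libraries. The share of all genes tested that were higher at any fold was not computed under these scalings. The median log2 change of all genes tested was −0.24 with TPM and −0.02 with the median ratio. Rescaling to TPM (each library brought to the same sum) moved the median log2 change of all genes tested by −0.11, and Rfc2 alone then came out lower in pro-B cells, at −0.09. Scaling by the median ratio over genes moved that median by 0.11, and all 38 were then higher. The filter and the pseudocount were applied after scaling, so the genes tested numbered 11009 with TPM and 10126 with the median ratio.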

How the data were processed

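Per the labels and the study's methods, total RNA depleted of ribosomal RNA was sequenced as strand-specific single-end reads of 97 nt. Per the labels, reads were aligned to the mouse genome build mm9 with TopHat 1.5 in the processing notes (the study's parameter list names another version). The authors estimated FPKM per RefSeq transcript with Cuffdiff 2.1.1, with bias and multi-read correction, in 1 library per cell type and with its own 95% intervals. The deposited table of comparisons holds the authors' fold changes, p-values and q-values and a second copy of the FPKM in 2 per-sample columns, and was not used.

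The deposited FPKM of protein-coding (NM_) rows, 26968 of 30485, were matched by accession to gene symbols, which named 26555 rows, and were summed per gene. A pseudocount of 1 was added, and genes with a mean of at least 1 FPKM were kept (10131 of 20250, all 38 replication genes among them). With 1 library per group no test was made and no p-value is given. Positions come from an annotation of mm9, and promoters from RefSeq on GRCm38.p6. Copies were searched with BLAST 2.17.0. Computations used Python 3.11.15 with numpy 2.4.6, pandas 2.3.3 and matplotlib 3.10.9. Named genes were all 38, and for other lists at most the 3 with the largest fold in each direction. The rules that set the 38 genes and the other lists used no measured value, but genes and lists were chosen with earlier results of these data known. Genes named from other lists were picked by their measured values. Protein sequences were not analysed here. Alternatives covered the pseudocount, the filter on low values, scaling, use of the most abundant transcript, repeated accessions and the quantification status.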

Additional observations from a re-analysis of the deposited data

How the results depend on the processing

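Under the 10 alternatives 0 of the 38 genes were lower in pro-B cells by 1.5-fold or more. The count at least 2-fold higher ran from 19 to 26, the count at least 1.5-fold higher from 27 to 32, and the median log2 change from 1.01 to 1.48. The share of all genes tested that were at least 2-fold higher moved too, from 5.63% with a pseudocount of 10 to 13.8% with none. A pseudocount of 10 gave the lowest count, with Gins3, Mcm2, Mcm7, Orc1, Pold2 and Pole no longer at 2-fold, and took the median of Fen1 and Lig1 from 1.77 to 1.22, a direct effect of adding more to low values. Mcm4 passed 2-fold with a pseudocount of 0.1, with none and under median ratio scaling. Mcm7 fell short under scaling to TPM (each library brought to the same sum), at 0.97. Over the genes that passed the filter after scaling, the shares at least 2-fold higher and lower were 12.4% and 23.2% of 11009 under that scaling. Under median ratio scaling they were 13.7% and 16.1% of 10126. Among genes with a mean of at least 10 FPKM, Orc1 was not tested and 24 of 37 were at least 2-fold higher, against 12.2% of 6095 genes. Without the filter on low values, 6.34% of 20250 genes were at least 2-fold higher and 25 of 38 replication genes were.

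No paired analysis was possible because each cell type had 1 library, and no library was left out for the same reason. The lowest nominal depth, that of Orc1, gave a counting error of 4.24%, and the spread between cultures is not known.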

Other observations

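All 18 mitotic genes examined were higher in pro-B cells by 2-fold or more, with log2 changes from 1.56 to 2.66. Among the 17 of them with a promoter, 11 held TTTGAA (64.7%), 14 held CCAAT (82.4%) and 1 held an E2F word (5.88%). Of the 30 replication genes with a promoter, 5, 18 and 15 did so in turn. Of the 13 E2f factors and pocket proteins, 11 were higher and 2 lower in pro-B cells. By 2-fold or more, 6 were higher and 1 lower, where 12.2% and 17.9% of the genes tested were. Rbl1, the p107 pocket protein, stood at 27.7 FPKM in the pre-pro-B library and 134 in the pro-B library, and E2f7, a repressor, at 0.764 and 9.35. The 1 lower by 2-fold or more was E2f6, another repressor, at 20.7 and 7.42. Of the 13 G1 and S cyclins, kinases and inhibitors tested, 6 were at least 2-fold higher and 1 at least 2-fold lower, beside the same shares. Ccnd3, a D-type cyclin, stood at 50.1 and 577 FPKM, Cdkn2c, an inhibitor of its kinases, at 6.22 and 116, and Cdk6, one of those kinases, at 100 and 8.39.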
